A study of Mus musculus with 32 samples.

Results

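The genes described here are 4 collagen chain genes of soft connective tissue, Col1a1, Col3a1, Col5a2 and Col6a2. They were taken by name from RNA sequencing of synovium and cartilage of C57BL/6 mice, and no measured value entered the choice of names. All 4 were among the 1178 genes of the synovium table, and Col3a1 and Col6a2 were among the 1606 genes of the cartilage table, out of 2544 genes in either. Col1a1 and Col5a2 were not among the cartilage genes listed, which says nothing of their level there.

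The animals were control mice and mice of a model that the labels name MMS. The 18 synovium samples fell into 6 groups of 3, namely Control, the MMS groups D3, D7 and D14, and the groups R1 and R2. The 14 cartilage samples fell into the same groups plus MMS D28, with 2 samples in each. What MMS, R1 and R2 stand for, the unit of the numbers after D, and the age of the mice are not given in the sources used here. Nothing in the labels states whether the replicates of a group came from separate animals, so the p-values measure the spread between these samples, which may be technical.

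Collagens I, III and V are fibrillar collagens, which assemble into the banded fibrils that give connective tissue its tensile strength. Collagen V sits within collagen I fibrils and is known to govern how they start and how thick they grow. Collagen VI instead forms fine beaded filaments around cells and between fibrils. In the synovium these proteins are made mainly by the fibroblasts of the layer under the lining, while the fibrils of healthy hyaline cartilage are built chiefly of collagen II.

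Col1a1 encodes the α1 chain of collagen I and lies on the plus strand of chromosome 11 (94936224 to 94953042, GENCODE vM21 on GRCm38). Col3a1, whose product forms collagen III as a trimer of identical chains, lies on the plus strand of chromosome 1 (45311538 to 45349706). Col5a2, the α2 chain of collagen V, lies on the minus strand of the same chromosome (45374321 to 45503282). Their 3′ ends face each other across a gap of 24614 bases. Col6a2, the α2 chain of collagen VI, lies on the minus strand of chromosome 10 (76595762 to 76623630). All 4 are annotated as protein-coding genes.

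RefSeq promoter sequence was at hand for 2 of the 4 genes, Col3a1 and Col6a2, which were also the 2 genes listed for both tissues. The 250 bases before each transcript start are shown to set the promoters of a fibrillar and a filament collagen gene side by side (GRCm38.p6, 5′ to 3′ on the gene's strand). The Col3a1 window is chr1:45311288-45311537 on the plus strand and the Col6a2 window is chr10:76623631-76623880 on the minus strand. Capitals mark a TATAAA match in Col3a1 and a GGGCGG match, read on the other strand, in Col6a2.
Col3a1: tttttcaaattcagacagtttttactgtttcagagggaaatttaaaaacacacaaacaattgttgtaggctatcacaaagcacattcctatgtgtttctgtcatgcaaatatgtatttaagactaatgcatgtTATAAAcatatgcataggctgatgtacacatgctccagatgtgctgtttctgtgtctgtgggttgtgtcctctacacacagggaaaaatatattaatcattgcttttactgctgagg
Col6a2: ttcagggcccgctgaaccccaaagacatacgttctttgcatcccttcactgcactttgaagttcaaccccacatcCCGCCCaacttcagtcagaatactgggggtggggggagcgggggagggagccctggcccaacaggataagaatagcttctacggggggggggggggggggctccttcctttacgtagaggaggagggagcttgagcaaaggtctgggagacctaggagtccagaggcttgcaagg
The Col3a1 window had a GC content of 35.2% and the Col6a2 window one of 59.2%, against a median of 52.4% over 32851 promoter windows of the same length. The match to TATAAA began 117 bases before the Col3a1 start, and 12.37% of the windows held this motif on either strand. The match to GGGCGG began 175 bases before the Col6a2 start, and 32.74% of the windows held it. CCAAT, found in 33.85% of the windows, was in neither sequence. These matches describe the letters of the windows and are not evidence of binding.

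Both tables list selected genes, by a rule that is not stated. In synovium 98.05% of the listed genes differed at least 1.5-fold between the MMS D14 and Control means, and in cartilage 99.0% did so between MMS D28 and Control. Calls in those 2 comparisons are therefore partly fixed by the selection. Other comparisons that use the MMS D14 synovium, MMS D28 cartilage or Control samples share samples with them. Calls there, such as those of R1 and R2 against MMS D14 in synovium, may also be affected. Below, a gene was called where limma gave an adjusted p under 0.05 over all genes of the table, and changes are on the log2 scale of the value plus 1. Depth is unknown, since neither table gives read totals. A set of 5 synovium libraries, the third replicates of all groups other than R1, stood apart: the predicted gene Gm2023 was at 1.71 to 3.36 FPKM in them and at 12.59 to 56.19 in the other 13. The changes of the 4 genes, their ratios, the nearest genes and the list counts were also computed without these libraries.

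In synovium, all 4 collagen genes were higher at MMS D14 than in Control, with means 4.81 to 7.19 times as high, and all 4 were lower again in R1 and R2 without reaching the Control range. The 3 fibrillar genes were already higher at MMS D3. Col6a2 was not, and its first called rise was at MMS D7.

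Col1a1 stood at 625, 624 and 509.9 FPKM in the 3 Control samples. It was at 1588, 1199 and 769 at MMS D3, at 2851, 2368 and 2827 at MMS D7, and at 4631, 4796 and 3220.3 at MMS D14. It was at 1381, 1196 and 1306 in R1 and at 1628, 1653 and 877 in R2. Every sample of every other group was above the highest Control sample, and the ranges of MMS D3, R1 and R2 overlapped one another. The order of mean levels was Control (586 ± 66.1, SD), MMS D3 (1185 ± 409.8), R1 (1294 ± 93.3), R2 (1386 ± 441), MMS D7 (2682 ± 272) and MMS D14 (4216 ± 866).

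Col3a1 had the highest FPKM of the 4 genes in every synovium sample. It stood at 1099, 998 and 976 FPKM in Control, at 1681, 1786 and 1335 at MMS D3, and at 3444, 3217 and 3989 at MMS D7. At MMS D14 the 3 samples were at 4930.1, 4929.6 and 4919.6, the top value of all 1178 genes in each of them, against rank 12 to 17 in Control. The coefficient of variation at MMS D14 was 0.120%. R1 was at 2253, 2117 and 1845 and R2 at 2578, 2508 and 2068, and these 2 groups overlapped. The order of means was Control (1025 ± 65.1), MMS D3 (1601 ± 236), R1 (2072 ± 207), R2 (2385 ± 276), MMS D7 (3549.9 ± 397) and MMS D14 (4926 ± 5.90), and no other neighbours in it overlapped.

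Col5a2 was the lowest of the 3 fibrillar genes. It stood at 75.85, 74.0 and 81.4 FPKM in Control, at 193, 179 and 127 at MMS D3, at 308, 274 and 397 at MMS D7, and at 459, 454 and 457 at MMS D14. R1 was at 166, 158 and 138 and R2 at 183, 171 and 152. No group overlapped Control, while R1, MMS D3 and R2 overlapped one another. The order of means was Control (77.1 ± 3.89), R1 (154 ± 14.2), MMS D3 (166 ± 34.5), R2 (168 ± 15.5), MMS D7 (326 ± 63.8) and MMS D14 (457 ± 2.34). As for Col3a1, the MMS D14 samples lay close together, with a coefficient of variation of 0.511%, where that of Col1a1 was 20.5% and that of Col6a2 was 25.1%.

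Col6a2 stood at 307, 285 and 210.2 FPKM in Control and at 294, 267 and 159 at MMS D3, so that these groups overlapped. It was at 659, 671 and 644.5 at MMS D7 and at 1576, 1407 and 941 at MMS D14. R1 was at 553, 612 and 447 and R2 at 563, 527 and 332, all above the highest Control sample. The order of means was MMS D3 (240.1 ± 71.8), Control (268 ± 50.9), R2 (474 ± 124), R1 (537 ± 83.7), MMS D7 (658 ± 13.4) and MMS D14 (1308 ± 329). Only MMS D3 with Control, and R2 with R1, overlapped among neighbours.

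**Figure D1:**
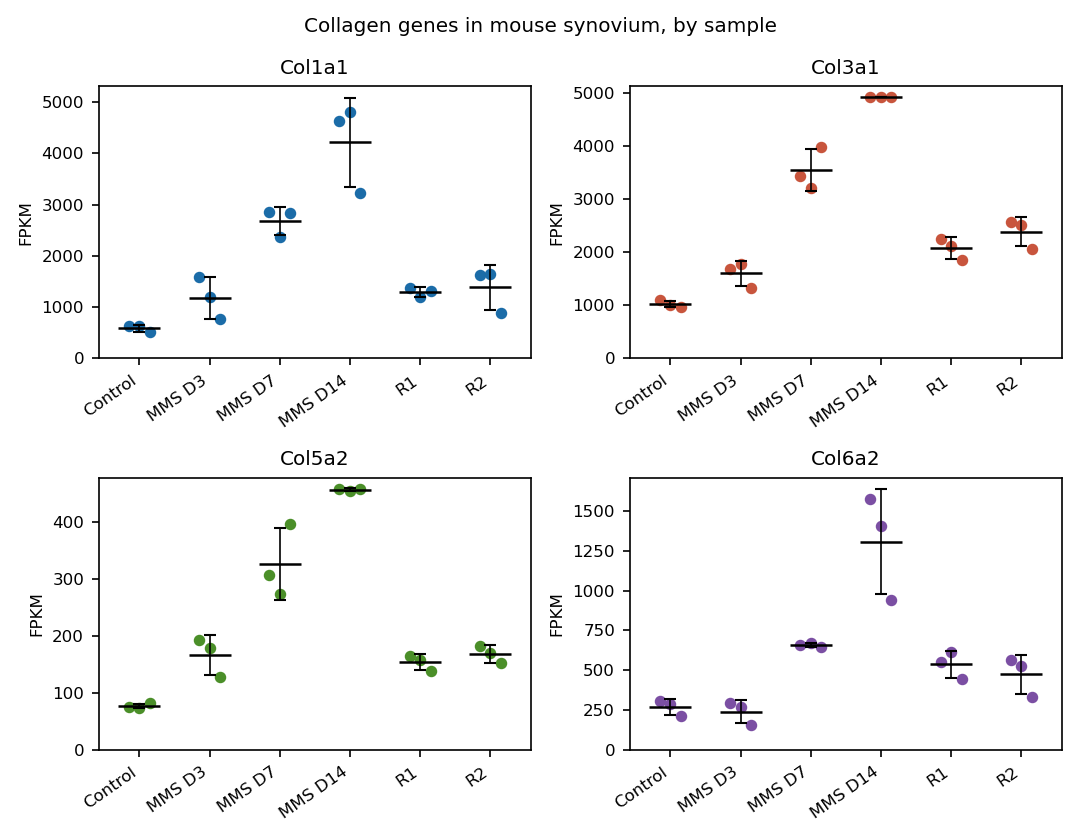
FPKM of Col1a1, Col3a1, Col5a2 and Col6a2 in each synovium sample (points) by group, with the group mean (line) and SD (bars), n = 3. MMS D14 holds the highest samples of all 4 genes, and the 3 Col3a1 points at MMS D14 lie between 4919.6 and 4930.1.

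Against Control at MMS D3, 3 of the 4 genes were called higher, in a comparison where 16.3% of all listed genes were. The log2 change was 0.96 for Col1a1 (SE 0.269, adjusted p = 0.00719), 0.63 for Col3a1 (SE 0.168, adjusted p = 0.00494) and 1.08 for Col5a2 (SE 0.167, adjusted p = 0.000115). For Col6a2 it was -0.19 (SE 0.259, adjusted p = 0.555), and 0.09 without MMS D3 replicate 3. The median of all listed genes was -0.34.

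At MMS D7 all 4 genes were called higher than in Control, against 24.1% of the listed genes. Their log2 changes were 2.19 for Col1a1, 1.79 for Col3a1, 2.05 for Col5a2 and 1.31 for Col6a2, with adjusted p from 1.09e-07 to 0.000251 and a median of -0.65 over all genes. At MMS D14 all 4 were called higher, against 27.7%. The changes were 2.83 (SE 0.269) for Col1a1, 2.27 (SE 0.168) for Col3a1, 2.55 (SE 0.167) for Col5a2 and 2.27 (SE 0.259) for Col6a2, with adjusted p from 3.48e-09 to 4.12e-07, and the median of all genes was -1.08. On the log2 scale the MMS D7 change came to 77.5% to 80.4% of the MMS D14 change in the fibrillar genes and to 57.9% in Col6a2.

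From MMS D3 to MMS D7 all 4 genes were called higher, against 12.1% of the listed genes. The change was largest for Col6a2 (1.5004, SE 0.259, adjusted p = 0.00101), and it was 1.23 for Col1a1, 1.15 for Col3a1 and 0.97 for Col5a2; these differences between genes were not tested. From MMS D7 to MMS D14, 3 of the 4 were called higher, against 12.6%. Col6a2 rose by 0.96 (adjusted p = 0.00806), Col3a1 by 0.48 (adjusted p = 0.0260) and Col5a2 by 0.50 (adjusted p = 0.0212), while Col1a1 differed by 0.64 with an adjusted p of 0.0540. All MMS D14 samples were above all MMS D7 samples for each of the 4. That describes the samples and is not a test, and no share of all listed genes is given for it.

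The calls of the step from MMS D7 to MMS D14 were sensitive to single libraries, except that of Col6a2. For Col3a1 the adjusted p became 0.0721 without MMS D7 replicate 1 and 0.0949 without MMS D7 replicate 2. Leaving out replicate 1 of MMS D14 gave 0.0609, and leaving out replicate 2 of that group gave 0.0612. For Col5a2 it became 0.0681, 0.103 and 0.0551 in the first 3 of these, and a fit of the 2 groups alone gave 0.110 for Col3a1 and 0.0629 for Col5a2. Col1a1 passed the test without MMS D14 replicate 3 (log2 change 0.82, adjusted p = 0.0277) and in a fit that left out the 5 libraries set apart above (0.86, adjusted p = 0.000973).

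R1 and R2 each differed from both Control and MMS D14 in all 4 genes. Against Control, all 4 were called higher in R1, where 15.9% of the listed genes were, with log2 changes of 1.15 for Col1a1, 1.01 for Col3a1, 0.99 for Col5a2 and 1.01 for Col6a2 and adjusted p from 0.000202 to 0.00357. In R2, against 15.7%, the changes were 1.19, 1.21, 1.11 and 0.80 in the same order, with adjusted p from 8.47e-05 to 0.0140. The median of all genes was -0.38 in both. Against MMS D14, all 4 were called lower in R1 (by 1.68, 1.25, 1.57 and 1.26) and in R2 (by 1.64, 1.05, 1.44 and 1.47), where 25.8% and 25.5% of the listed genes were, and the medians of all genes were 0.65 and 0.64. The comparisons with Control and with MMS D14 share the R1 or R2 samples.

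The call of Col6a2 in R2 against Control was the weakest of these. Its adjusted p became 0.0686 without Control replicate 3, 0.0695 without R2 replicate 1 and 0.0548 without R2 replicate 2. Between R2 and R1 none of the 4 genes was called, and 0% of the listed genes were called higher by limma; at an unadjusted p under 0.05 the counts were 0 of 4 and 52 of 1178. The differences of R2 from R1 were 0.04 (SE 0.269), 0.20 (SE 0.168), 0.13 (SE 0.167) and -0.20 (SE 0.259) for Col1a1, Col3a1, Col5a2 and Col6a2.

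**Figure D2:**
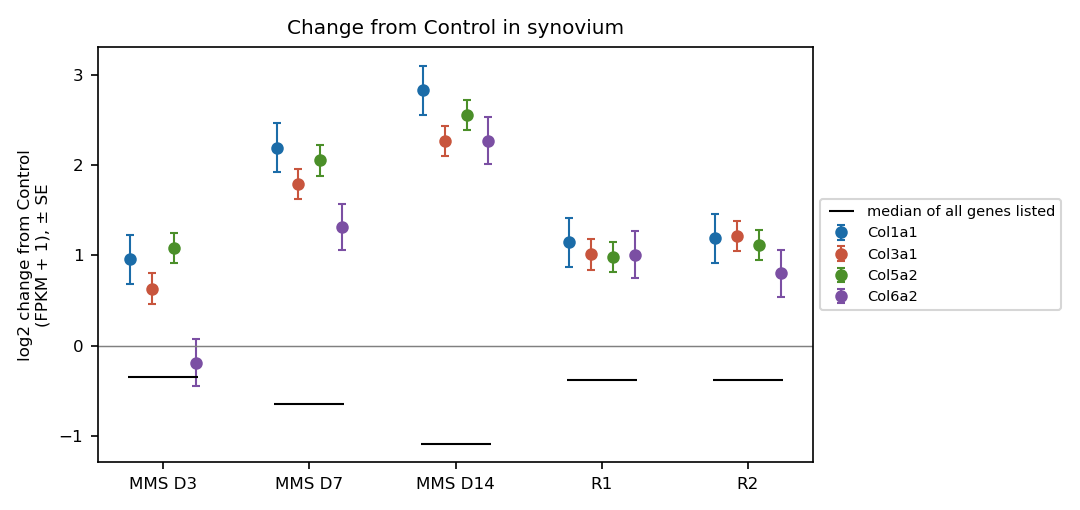
Log2 change from Control (FPKM plus 1) of the 4 genes in each synovium group, with SE from limma (bars), and the median of all 1178 listed genes (black line). Col6a2 is at -0.19 at MMS D3 where the other 3 are at 0.63 to 1.08, and all 4 are at 0.80 to 1.21 in R1 and R2.

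The same rises were present on both sides of the split between libraries. Comparing the single library apart with the Control library apart, MMS D14 was 6.32 times as high for Col1a1, 5.04 for Col3a1, 5.62 for Col5a2 and 4.48 for Col6a2. In the other libraries the ratios were 7.55, 4.70, 6.09 and 5.03. At MMS D3 they were 1.51, 1.37, 1.56 and 0.755 in the libraries apart and 2.23, 1.65, 2.48 and 0.948 in the others. In R2 they were 1.72, 2.12, 1.86 and 1.58 in the libraries apart and 2.63, 2.43, 2.36 and 1.84 in the others. Fitted without the 5 libraries, 3 of the 4 genes were called at MMS D3, and 4 of 4 in each later comparison with Control.

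Fat cell genes moved the other way. The summed FPKM of adipocyte markers, with 7 of 7 listed, was 9689 to 13144 in Control, 4863 to 11388 at MMS D3, 5113 to 6693 at MMS D7, 1913 to 4015 at MMS D14, 4448 to 5429.7 in R1 and 4535 to 7411 in R2. In each of the 6 groups the highest sum was that of replicate 3, which also had the lowest Col1a1 in Control, at MMS D3 and D14, and in R2. Of the fibroblast markers 1 of 7 was listed, Lum, a proteoglycan of collagen fibrils, which rose from 111 to 112 FPKM in Control to 971 to 1241 at MMS D14. None of the 5 macrophage markers was listed. The tendon markers Scx and Tnmd (2 of 3 listed) summed to 13.5 to 16.3 in Control and 66.5 to 88.3 at MMS D14. The 4 listed osteoblast markers went different ways at MMS D14. Ibsp, a bone sialoprotein gene, rose from 1.30 ± 0.211 to 31.1 ± 8.70. Alpl (-0.96) and Bglap2 (-0.84) were called lower by limma, and Bglap changed by -0.65 (adjusted p = 0.0731). The sum of the 4 was 64.8 to 77.7 in Control and 61.2 to 82.1 at MMS D14. The chondrocyte regulator Sox9 (1 of 8 listed) rose by 1.39 at MMS D14 (adjusted p = 9.11e-06), from 2.12 to 2.96 FPKM in Control to 7.11 to 8.98, and the endothelial receptor gene Kdr (1 of 3) fell by 1.23. The lining genes Clic5 and Hbegf (2 of 3) summed to 267 to 304 in Control, 59.8 to 82.5 at MMS D3, 146 to 154 at MMS D7 and 140.3 to 162 at MMS D14. Their sum was 379 to 450.4 in R1 and 344 to 433.5 in R2, above Control. Of the pair only Hbegf was called higher than Control by limma there, by 0.72 in R1 and 0.85 in R2. Clic5 changed by 0.19 in R1 (adjusted p = 0.419) and by -0.17 in R2 (adjusted p = 0.458). The part of these cell types in the collagen changes was not tested. In such bulk samples a change in the share of a cell type and a change in RNA per cell cannot be told apart.

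Ratios between the genes within a sample do not depend on how the sample was scaled. The ratio of Col1a1 to Col6a2 was 2.22 ± 0.197 in Control, 4.91 ± 0.457 at MMS D3, 4.08 ± 0.479 at MMS D7, 3.26 ± 0.275 at MMS D14, 2.46 ± 0.486 in R1 and 2.89 ± 0.249 in R2. All samples of MMS D3, MMS D7, MMS D14 and R2 were above all Control samples. The ratio of Col5a2 to Col6a2 went from 0.298 ± 0.0779 in Control to 0.709 ± 0.0815 at MMS D3 and 0.497 ± 0.108 at MMS D7, with no overlap, and was 0.367 ± 0.105 at MMS D14, with overlap. Col3a1 to Col6a2 followed the same course, from 3.91 ± 0.642 to 6.93 ± 1.37 at MMS D3, 5.40 ± 0.715 at MMS D7 and 3.95 ± 1.12 at MMS D14. Col6a2 was thus low relative to all 3 fibrillar genes at MMS D3 and MMS D7. These ratios differed between the libraries set apart and the others. At MMS D14 Col3a1 to Col6a2 was 3.13 and 3.50 in replicates 1 and 2 and 5.23 in replicate 3, where the Control samples were at 3.50, 3.58 and 4.65. Without the 5 libraries the ratios of Col1a1, Col3a1 and Col5a2 to Col6a2 remained above Control in every sample of MMS D3 and MMS D7, at means of 4.94, 6.20 and 0.662 at MMS D3 against 2.11, 3.54 and 0.253 in Control. The ratio of Col5a2 to Col6a2 at MMS D14 then no longer overlapped Control (0.307 against 0.253). With only 2 Control samples left, a lack of overlap carries little weight.

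The fibrillar genes also shifted among themselves. The ratio of Col3a1 to Col5a2 fell from 13.3 ± 1.26 in Control to 9.72 ± 0.917 at MMS D3, 11.0 ± 0.872 at MMS D7 and 10.8 ± 0.0599 at MMS D14, with every sample below every Control sample, and stood at 13.4 ± 0.137 in R1 and 14.2 ± 0.538 in R2. The ratio of Col1a1 to Col3a1 was 0.572 ± 0.0513 in Control, 0.758 ± 0.0623 at MMS D7 and 0.856 ± 0.175 at MMS D14, without overlap, and 0.629 ± 0.0727 in R1 and 0.572 ± 0.128 in R2, with overlap. The ratio of Col1a1 to Col5a2 overlapped Control in every group. Without the 5 libraries it did not, other than in R1: its mean was 8.34 in Control, 7.47 at MMS D3, 8.95 at MMS D7, 10.3 at MMS D14 and 9.31 in R2. Col3a1 to Col5a2 remained below Control in every sample of MMS D3, MMS D7 and MMS D14 without them. Only 2 Control samples are left without the 5 libraries, so a lack of overlap there carries little weight. Of 30 ratio comparisons with Control over all samples, 13 had no overlap, each with a two-sided exact permutation p of 0.1 and an adjusted p of 0.231. That is the smallest p that 3 samples against 3 allow, so no ratio could pass the threshold.

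**Figure D3:**
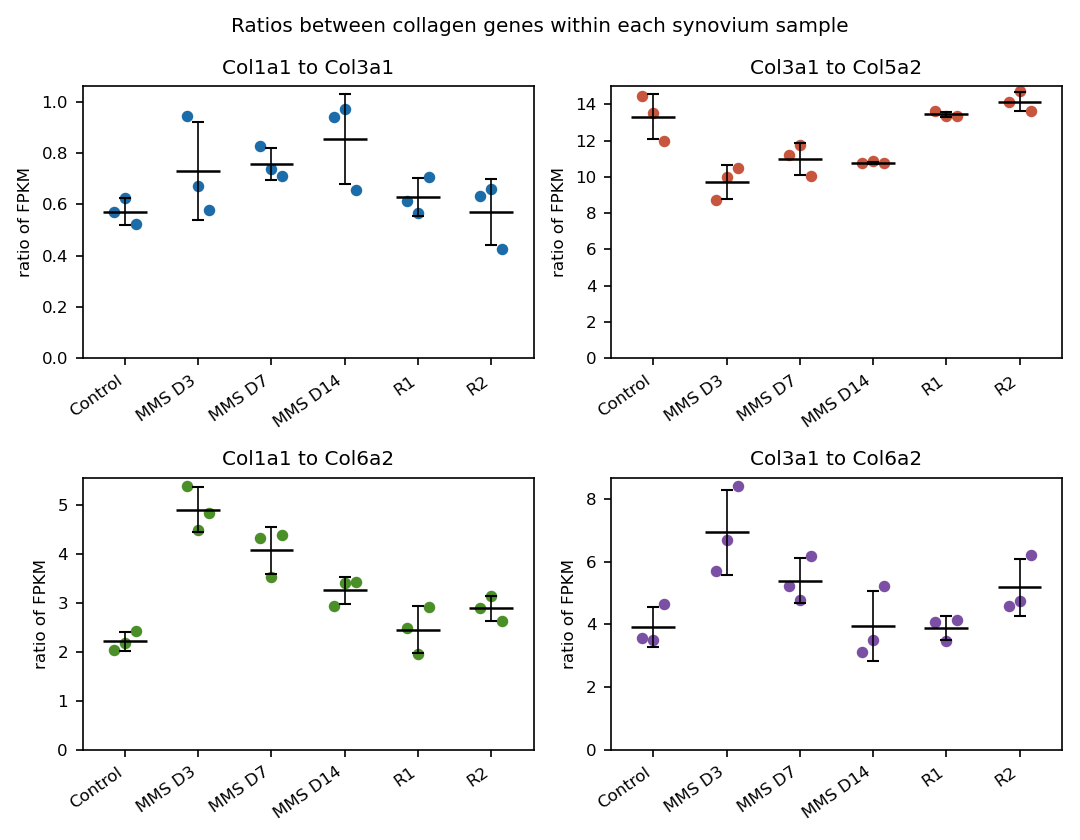
Ratio of FPKM between pairs of the genes within each synovium sample (points), with group mean (line) and SD (bars), n = 3. The ratios to Col6a2 are highest at MMS D3, at 4.91 for Col1a1 and 6.93 for Col3a1, and Col3a1 to Col5a2 is lowest at MMS D3, at 9.72.

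The partner chains of each collagen followed their own gene to different degrees. Col6a1, the α1 chain of collagen VI, kept a mean ratio to Col6a2 between 0.890 and 1.10 in the 6 groups, and the α3 chain gene Col6a3 one between 0.181 and 0.263. Neither was called at MMS D3 against Control (log2 change -0.02 for Col6a1 and 0.08 for Col6a3), as for Col6a2 itself. Col1a2, the α2 chain of collagen I, rose from 558 ± 15.02 FPKM in Control to 3077 ± 299 at MMS D14, and the ratio of Col1a1 to it was 1.05 ± 0.0962 in Control and 1.37 ± 0.288 at MMS D14, with overlap. The 2 other collagen V chains departed further. Col5a1 to Col5a2 was 0.923 ± 0.186 in Control and 0.606 ± 0.172 at MMS D3, with overlap. Col5a3 to Col5a2 was 0.926 ± 0.0473 in Control, 0.3299 ± 0.0630 at MMS D3, 0.335 ± 0.0293 at MMS D7, 0.328 ± 0.0655 at MMS D14, 0.592 ± 0.0147 in R1 and 0.461 ± 0.136 in R2, below Control in every sample. Without the 5 libraries Col5a3 to Col5a2 was still below Control in every group, and 2 of the overlaps above ended: Col1a1 to Col1a2 was 1.10 in Control and 1.53 at MMS D14, and Col5a1 to Col5a2 was 1.03 in Control and 0.676 at MMS D3. These partner ratios were not tested, and without the 5 libraries a lack of overlap rests on 2 Control samples.

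Measured over all 18 synovium samples, the gene most like Col1a1 in its course was Col16a1, a fibril-associated collagen, with a root mean square difference of 0.14 on the log2 scale after each gene was centred on its mean. Col5a1, Col1a2, Col5a2 and C1qtnf6 came next at 0.22 to 0.25. For Col3a1 the nearest were Col1a2 (0.17), the membrane-type collagenase gene Mmp14 (0.20), Col5a2 (0.21), the secreted glycoprotein gene Fstl1 (0.23) and Pdgfrl (0.23). For Col5a2 they were Col1a2 (0.13), C1qtnf6 (0.19), Col3a1 (0.21), the ectonucleotidase gene Enpp1 (0.22) and Col16a1 (0.22). The genes nearest to Col6a2 were Col6a1 at 0.14, Col6a3 at 0.24, the thrombospondin gene Thbs3 at 0.25, Rerg at 0.28 and Col5a1, also near to Col1a1, at 0.30. Among 1148 genes Col6a2 ranked 158 in likeness to Col5a2 and 33 in likeness to Col1a1. In the 13 libraries other than those set apart, 4 of the 5 nearest genes were the same for Col1a1 and for Col6a2, and 2 of 5 for Col3a1 and for Col5a2. Col16a1 and Col6a1 were again the first for Col1a1 and Col6a2 there, Mmp14 was the first for Col3a1 and C1qtnf6 for Col5a2. These distances describe the samples, which share libraries and scaling, and carry no test.

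Gene lists are read below against all listed synovium genes, of which 16.3% were called higher than Control and 39.6% lower at MMS D3. The shares were 24.1% and 61.6% at MMS D7, 27.7% and 69.3% at MMS D14, 15.9% and 45.2% in R1, and 15.7% and 45.1% in R2. Being called at MMS D14 is partly fixed by the selection of genes, so the list counts there tell mainly of direction. Without the 5 libraries set apart, every list count at MMS D14 given below was the same, and the other counts given below moved by at most 1 gene.

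Among the other collagen chain genes, 9 of 40 were listed in synovium. Against Control, 4 of the 9 were called higher and 1 lower at MMS D3, 8 and 1 at MMS D7, 8 and 1 at MMS D14, 5 and 1 in R1, and 6 and 0 in R2, with a median log2 change of 2.21 at MMS D14. Col16a1 rose by 2.83, from 9.55 ± 0.867 to 74.2 ± 8.76 FPKM, Col8a1, a network-forming collagen, by 2.01, and the fibrillar Col27a1 by 1.81. Col4a5, a basement membrane chain, was the 1 that fell, by 1.23, from 8.76 ± 0.940 to 3.15 ± 0.3995.

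Genes that modify and fold the chains were called higher in 5 of 8 listed at MMS D3, 7 at MMS D7, 8 at MMS D14, 7 in R1 and 6 in R2, and none was called lower by limma, nor at an unadjusted p under 0.05. At MMS D14 the prolyl hydroxylase subunit gene P4ha3 rose by 3.71, the lysyl hydroxylase gene Plod2 by 2.57, the collagen chaperone gene Fkbp10 by 1.77 and P4ha2 by 1.64. Of 5 genes that trim or cross-link collagen, 4 were called higher and 1 lower at MMS D14. The lysyl oxidase gene Lox rose by 3.08, Loxl3 by 2.05 and the procollagen peptidase gene Adamts14 by 1.37, and Pcolce2, an enhancer of procollagen C-proteinase, fell by 1.42. In R2 the counts for this list were 2 higher and 0 lower.

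The 7 listed genes for the breakdown of collagen were all called higher at MMS D14, and 6 of them in R2, with none called lower in either. Mmp2, a gelatinase, rose by 2.997 to 940.2 ± 54.6 FPKM, Mmp3 by 2.85, Mmp14 by 2.50 and the cysteine protease gene Ctsk by 1.97. The 3 listed inhibitors of these proteases, named after their values were seen, did not move together. Timp1 rose by 2.89 (adjusted p = 2.22e-06), and Timp3 and Timp4 fell by 1.30 and 1.86. In R2, 0 of the 3 were called higher and 1 lower, Timp4 (-1.59). All 3 listed collagen receptor genes were called higher at MMS D14, Antxr1 by 2.41, Itga11 by 1.92 and Itga10 by 1.11, and 0 of 3 by limma at MMS D3, where 1 was lower at an unadjusted p under 0.05.

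Of 14 listed genes for proteins that bind or organise fibrils, 13 were called higher and 1 lower at MMS D14, and 12 and 0 in R2. The thrombospondin gene Thbs4 rose by 4.44, Lum by 3.33, tenascin C (Tnc) by 5.51 and periostin (Postn) by 3.55. The 1 that fell was tenascin X (Tnxb, -1.10), named after its value was seen. In the list of TGF-beta ligands, receptors and targets, 4 of 5 were called higher and 1 lower at MMS D14. Ltbp1 and Ltbp2 rose by 1.22 and 1.99 and Inhba, an activin subunit, by 1.58, and Ctgf, named after its value was seen, fell by 0.60. List genes outside the table could not be counted.

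In cartilage both listed genes had their highest mean at MMS D14. The Col3a1 mean was 3.62 times the Control mean at MMS D7, 9.28 times at MMS D14, 3.71 times at MMS D28 and 3.53 times in R2, and the R2 difference was not called. Col6a2 was called higher at MMS D14, at 2.01 times the Control mean. Its lower call at MMS D28 (-0.62) lay near the median of all listed genes (-0.49) and ended when any of 3 single samples was left out. From MMS D14 to MMS D28 the changes were -1.56 for Col3a1 and -1.58 for Col6a2, and only that of Col6a2 was called. A difference between the genes in this step was not tested. The cartilage values were treated as a normalised signal of unknown unit. Levels of the 2 genes are therefore not compared with each other or with synovium, and their ratio is only followed between groups.

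Col3a1 stood at 45.6 and 70.1 in the 2 Control samples, 63.0 and 27.2 at MMS D3, 206 and 213 at MMS D7, 644 and 430.3 at MMS D14, and 94.2 and 335 at MMS D28. It was at 87.6 and 141 in R1 and at 258 and 150.5 in R2. All groups other than MMS D3 lay above the higher Control sample. The order of means was MMS D3 (45.1 ± 25.3), Control (57.8 ± 17.3), R1 (114 ± 37.5), R2 (204 ± 75.9), MMS D7 (209 ± 4.78), MMS D28 (214.5 ± 170.2) and MMS D14 (537 ± 151), and the MMS D28 samples spanned those of R2 and MMS D7.

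Col6a2 stood at 192 and 163 in Control, 174 and 141 at MMS D3, 161 and 234 at MMS D7, 442 and 270.4 at MMS D14, and 90.2 and 146 at MMS D28. It was at 120.3 and 133 in R1 and at 238 and 188 in R2. MMS D14 alone lay wholly above Control, and MMS D28 and R1 wholly below it. The order of means was MMS D28 (118 ± 39.7), R1 (127 ± 9.12), MMS D3 (158 ± 23.5), Control (178 ± 20.8), MMS D7 (197 ± 51.5), R2 (213 ± 35.5) and MMS D14 (356 ± 121), and of neighbours only R1 with MMS D3 and R2 with MMS D14 did not overlap.

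**Figure D4:**
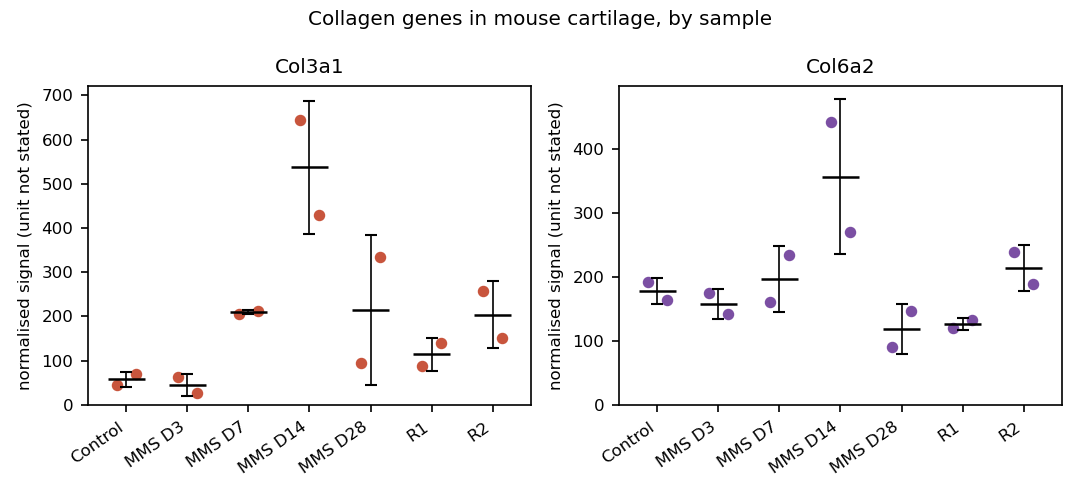
Normalised signal (unit not stated) of Col3a1 and Col6a2 in each cartilage sample (points) by group, with group mean (line) and SD (bars), n = 2. Col3a1 is highest at MMS D14, at 430.3 and 644, and the 2 MMS D28 samples are far apart, at 94.2 and 335.

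At MMS D3 neither gene was called against Control, with log2 changes of -0.44 for Col3a1 (SE 0.525) and -0.17 for Col6a2 (SE 0.277), where 11% of listed genes were called lower; 0 of 2 were under an unadjusted p of 0.05 in limma. At MMS D7 Col3a1 was called higher (1.87, SE 0.525, adjusted p = 0.0227), against 6.79%, and Col6a2 was not (0.13, adjusted p = 0.786). The Col3a1 call ended without Control replicate 1 (adjusted p = 0.149), without MMS D7 replicate 1 (0.0979) and without MMS D7 replicate 2 (0.0790). At MMS D14 both were called higher, against 25.5%, Col3a1 by 3.20 (SE 0.525, adjusted p = 0.000473) and Col6a2 by 0.96 (SE 0.277, adjusted p = 0.0121). The Col6a2 call ended without Control replicate 2 (adjusted p = 0.0707) and without MMS D14 replicate 1 (log2 change 0.61, adjusted p = 0.113).

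At MMS D28 Col3a1 was called higher (1.64, adjusted p = 0.0102), against 42.7% of listed genes, and Col6a2 lower (-0.62, adjusted p = 0.0459), against 54.6%. The Col3a1 change was 0.73 without MMS D28 replicate 2 (adjusted p = 0.162) and 1.33 without Control replicate 1 (0.0663). The Col6a2 call ended without Control replicate 1 (adjusted p = 0.180), without Control replicate 2 (0.0606) and without MMS D28 replicate 1 (log2 change -0.27, adjusted p = 0.388). It also ended with each sample centred on its median (0.109) and with the replicate number as a block (0.0573), while without MMS D28 replicate 2 it was -0.96 (0.00955). The median change of all listed genes was -0.49. In R1, where 36% of genes were called higher, the changes were 0.96 for Col3a1 (adjusted p = 0.113) and -0.48 for Col6a2 (0.129), and a fit of those 2 groups alone called both (0.0197 and 0.00991). In R2, where 0.0623% were called higher, they were 1.78 for Col3a1 (adjusted p = 0.125) and 0.26 for Col6a2 (0.633).

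Between the MMS groups, Col3a1 was called higher at MMS D7 than at MMS D3 (2.31, adjusted p = 0.0112), against 2.8% of genes, and Col6a2 was not (0.30). That Col3a1 call ended without MMS D3 replicate 2 (adjusted p = 0.140) and without MMS D7 replicate 1 (0.0638). From MMS D7 to MMS D14, where 9.28% were called higher, neither passed (1.33, adjusted p = 0.0917, and 0.83, adjusted p = 0.0559). From MMS D14 to MMS D28, where 16.1% were called lower, Col6a2 fell by 1.58 (adjusted p = 0.00747) and Col3a1 differed by -1.56 (adjusted p = 0.0508). Without MMS D28 replicate 2 the Col3a1 difference was -2.47 (adjusted p = 0.00438), and without MMS D14 replicate 1 or MMS D28 replicate 1 the Col6a2 call ended (0.0827 and 0.0753).

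R1 was lower than MMS D14 in both genes, against 9.78%, by 2.23 for Col3a1 (adjusted p = 0.0119) and by 1.44 for Col6a2 (adjusted p = 0.00393). Both calls ended without MMS D14 replicate 1 (0.0926 and 0.0509), and that of Col3a1 also without R1 replicate 1 (0.0920). R2 against MMS D14, where 15.9% were called lower, gave -1.41 for Col3a1 (adjusted p = 0.0530) and -0.71 for Col6a2 (adjusted p = 0.0630), and Col6a2 passed without MMS D14 replicate 2 (-1.06, adjusted p = 0.0269). R1 against MMS D28 called neither gene in limma (-0.67 for Col3a1 and 0.14 for Col6a2, 0 of 2 at an unadjusted p under 0.05), where 6.1% were called higher. R2 was higher than MMS D28 in Col6a2 (0.87, adjusted p = 0.0135), against 41.8%, and the call ended without MMS D28 replicate 1 (0.53, adjusted p = 0.148) and without R2 replicate 1 (0.70, adjusted p = 0.0908). For Col3a1 that difference was 0.15. R2 against R1, where 13.2% were called higher, gave 0.82 for Col3a1 (adjusted p = 0.217) and 0.74 for Col6a2 (adjusted p = 0.0543).

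The ratio of Col3a1 to Col6a2 within a cartilage sample averaged 0.334 ± 0.137 in Control, 0.277 ± 0.119 at MMS D3, 1.10 ± 0.262 at MMS D7, 1.52 ± 0.0962 at MMS D14, 1.67 ± 0.879 at MMS D28, 0.892 ± 0.232 in R1 and 0.941 ± 0.199 in R2. In 5 of these 6 groups both samples were above both Control samples, each with an exact permutation p of 0.333 (adjusted p = 0.4), the smallest that 2 samples against 2 allow. As the unit is unknown, the size of this ratio does not say which gene was at the higher level.

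Over the 14 cartilage samples, the genes nearest to Col3a1 were Fndc1 (root mean square difference 0.44), the proteoglycan gene Aspn (0.44), Mmp2 (0.48), Cthrc1 (0.49), a secreted protein gene with a collagen triple helix repeat, and Postn (0.54). Those nearest to Col6a2 were Cgref1 (0.22), the coatomer subunit gene Copz2 (0.25), the caveolin gene Cav1 (0.26), the ephrin gene Efnb1 (0.26) and Gpx8 (0.28). The 2 collagen genes stood 1.004 apart on this measure. Among 1559 genes Col3a1 ranked 1511 in likeness to Col6a2, while Col6a2 ranked 44 in likeness to Col3a1. The measure depends on the size of the changes of a gene, so the ranks of a pair can differ. Like Col3a1, Aspn varied between the MMS D28 samples (21.6 ± 22.8), against 3.37 ± 1.17 in Control.

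Of the other collagen chain genes, 12 of 40 were listed in cartilage, among them Col2a1 of collagen II, Col9a2 and Col9a3 of collagen IX and Col10a1 of hypertrophic cartilage. Against Control, 0 were called higher and 2 lower at MMS D3, 0 and 2 at MMS D7, 2 and 5 at MMS D14, 1 and 9 at MMS D28, and none in R1 or R2 by limma. Of all listed genes 12.9% were called higher at MMS D3, 6.79% at MMS D7, 25.5% at MMS D14, 42.7% at MMS D28, 36% in R1 and 0.0623% in R2. The shares called lower were 11% at MMS D3, 15.6% at MMS D7, 28% at MMS D14, 54.6% at MMS D28, 33.3% in R1 and 0.685% in R2. The share of collagen genes called lower at MMS D3 and MMS D7 was thus close to that of all genes. At an unadjusted p under 0.05, 0 were higher and 2 lower in R1, and 0 and 0 in R2. At MMS D14 the 2 that rose were Col12a1, a fibril-associated collagen (2.60, from 4.48 ± 0.919 to 32.25 ± 6.96), and Col18a1, a basement membrane collagen (2.07). Col9a3 fell by 1.24 and Col9a2 by 1.09 there, and Col2a1 had a change of -0.70 (adjusted p = 0.124). At MMS D28 Col2a1 fell by 1.27, from 772 ± 189.5 to 354 ± 230.1.

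**Figure D5:**
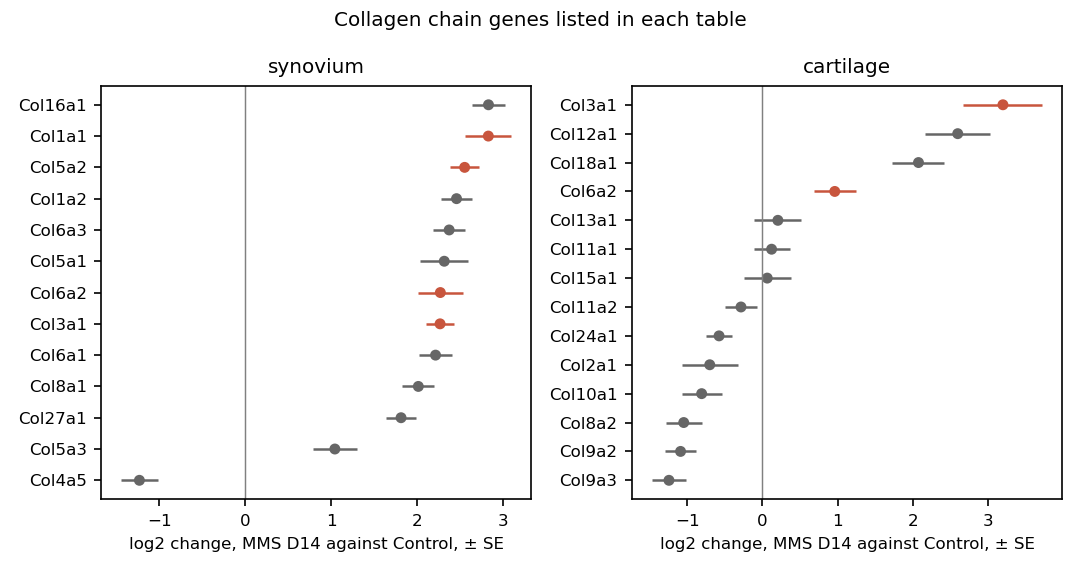
Log2 change from Control at MMS D14 of each listed collagen chain gene in synovium (left) and cartilage (right), with SE from limma (bars), Col1a1, Col3a1, Col5a2 and Col6a2 in red. In synovium all genes but Col4a5 (-1.23) are above 0, and in cartilage Col3a1 (3.20) is the highest and Col9a3 (-1.24) the lowest.

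In cartilage at MMS D28, 9 of 10 listed genes for folding and modifying collagen were called lower and 1 higher, in a comparison partly fixed by the selection of genes. P3h2 fell by 1.59, P4ha2 by 1.18, Colgalt2 by 1.12 and P4ha1 by 0.89, and the 1 that rose was Tmem38b (0.70), named after its value was seen. All 3 listed trimming and cross-linking genes were called lower, Pcolce2 by 1.70, Loxl4 by 1.36 and Loxl2 by 1.05. Of 7 genes of collagen breakdown 4 were called higher and 1 lower, with Mmp19 at 0.84, Mmp9 at 0.62, Mmp3 at 1.05 and Mrc2, an endocytic collagen receptor, at -0.56. The inhibitor gene Timp4, the 1 inhibitor listed and named after its value was seen, was also called higher (0.55, adjusted p = 0.0454). Of 14 fibril-associated genes 2 were called higher and 9 lower, of 3 receptor genes 0 and 2, and of 7 TGF-beta genes 4 and 3. Among all listed cartilage genes 42.7% were called higher and 54.6% lower at MMS D28. In R2 limma called no gene of these lists, and at an unadjusted p under 0.05 a list had 0 to 2 genes.

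Markers of other cells in the cartilage samples moved as well. Chondrocyte markers (5 of 8 listed) summed to 8318 to 11180.1 in Control, 12772 to 13398 at MMS D3, 6230.2 to 9516 at MMS D7, 2684 to 2917 at MMS D14 and 3364 to 4703 at MMS D28. They summed to 6380.3 to 6636 in R1 and 7129 to 8183 in R2. Osteoblast markers (7 of 8) summed to 5454 to 5727 in Control, 2213 to 2756 at MMS D3, 3490.1 to 3675 at MMS D7, 3915 to 4578 at MMS D14 and 1984 to 3326 at MMS D28, and to 2894 to 4541 in R1 and 5551 to 8390 in R2. Fibroblast markers (5 of 7) summed to 1398 to 1678 in Control. The sums were above Control at MMS D3 (2179.9 to 3088) and MMS D7 (1707 to 2073), and stood at 1217 to 1484 at MMS D14, 976 to 1121 in R1 and 1139.5 to 1344 in R2. At MMS D28 these markers summed to 714 in replicate 1 and 1368 in replicate 2, which had the higher Col3a1 and Col6a2. Most of the sum was Dcn, with means of 1383 in Control, 2474 at MMS D3 and 958 at MMS D14. The other listed fibroblast markers had higher means at MMS D14 than in Control. Lum was at 307 against 98.2, Dpt at 21.8 against 9.255, Thy1 at 12.5 against 7.355 and Pi16 at 50.95 against 40.29. None of the 5 macrophage, 7 adipocyte or 3 tendon markers was listed. The part of these cell types in the values of Col3a1 and Col6a2 was not tested.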

How the data were processed

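Expression was measured by RNA sequencing of bulk synovium and cartilage. Per the labels' protocols, RNA was extracted with Trizol and libraries were made by BGI protocols. Per the submitters' processing notes the aligner was HISAT2 and the build mm10; the version, the annotation, the counting tool and strand use are not given in the sources used here. The synovium values are FPKM per the file headers, a value scaled to gene length and library size. The authors deposited the cartilage values as a normalised signal without a stated unit. Without counts, no interval or detection limit for counting error could be given, and the number of samples limits the precision.

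Samples were grouped by the tissue and intervention in their labels. Values were taken as log2(value + 1); a filter asking for at least 1 in as many samples as a group holds removed 0 genes. For each tissue 1 linear model over every group was fitted with limma 3.58.1 under R 4.3.3, using a variance trend, for 10 comparisons in synovium and 14 in cartilage, with Benjamini-Hochberg adjustment over all genes and a threshold of 0.05. The script was tested on simulated data. Ratios between genes within a sample were compared by two-sided exact permutation tests, adjusted over the tests of a tissue. Likeness was the root mean square difference between gene-centred log2 values, and the 5 nearest genes other than predicted models were named. Of the collagen chain list any gene could be named. Of each other list up to 4 genes were named, those with the smallest adjusted p in synovium MMS D14 (cartilage MMS D28) against Control.

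The genes, lists and tests were chosen with earlier results of these data known. Groups share replicate numbers. Same-numbered synovium samples deviated together, with every correlation over 0.1, in MMS D3 (0.128 to 0.404), MMS D14 (0.115 to 0.284) and R2 (0.359 to 0.661) against Control and in R2 against MMS D14 (0.269 to 0.352). The numbers may thus mark pairs there, a reading from the data and not the labels. The main fit and the permutation tests were unpaired, and the replicate number entered only in the block alternative. Alternatives were centring each sample, a pseudocount of 0.1, no filter, no trend, a replicate block, a fit of the 2 groups alone, and omission of single samples. Added after seeing the data were leaving out the 5 synovium libraries apart, for the changes, ratios, nearest genes and list counts, and a term for them in the fit. No 2 samples shared more than 0.509% (synovium) or 0.560% (cartilage) identical values. Python 3.11.15, pandas 2.3.3 and numpy 2.4.6 were used.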

Additional observations from a re-analysis of the deposited data

Results flagged for a closer look

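Col6a2 in R1 moved in opposite directions in the 2 tissues. Against Control its log2 change was 1.01 in synovium, where all 3 R1 samples were above all 3 Control samples, and -0.48 in cartilage, where both R1 samples were below both Control samples. The cartilage change did not pass the test (adjusted p = 0.129). The difference between the tissues was not tested, because the tables were normalised separately.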

How the results depend on the processing

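Of 560 alternative values for the synovium log2 changes, 536 kept their direction and side of the threshold, as did 243 of 280 in cartilage; the cause of the changes below was not tested. In synovium, the count of the 4 genes called from MMS D7 to MMS D14 (3) became 1 with only the 2 groups compared and ranged from 1 to 4 when single samples were left out. In cartilage, the counts of the 2 genes called ranged from 0 to 1 for MMS D7 against Control, MMS D7 against MMS D3, R2 against MMS D14 and R2 against MMS D28, from 1 to 2 for MMS D14 against Control, from 0 to 1 for MMS D28 against Control, and from 0 to 2 for MMS D28 and R1 against MMS D14 when single samples were left out. With samples centred on their median, the cartilage count became 1 for MMS D28 against Control and 2 for R2 against MMS D14 (adjusted p = 0.0391 for Col3a1 and 0.0410 for Col6a2). With only the 2 groups compared it became 2 for R1 against Control and MMS D28 against MMS D14, and 1 for MMS D14 against MMS D7, R2 against MMS D14 and R2 against R1. With the replicate block, the count for cartilage MMS D28 against Control became 1 (Col6a2, adjusted p = 0.0573) and Col1a1 passed from MMS D7 to MMS D14 in synovium (adjusted p = 0.0195); the block changed no other call of the 4 genes. Col1a1 also passed there with centring (0.0231), without the trend (0.0476) and with a term for the 5 libraries (0.0110).

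Signs turned, when single samples were left out, only for values that had not passed the test. Their ranges in synovium were -0.36 to 0.0862 for Col6a2 at MMS D3 against Control and, for R2 against R1, -0.11 to 0.34 for Col1a1 and -0.35 to 0.0324 for Col6a2, which was also 0.0324 without the 5 libraries. In cartilage they were -1.03 to 0.15 for Col3a1 at MMS D3 and -0.14 to 0.40 for Col6a2 at MMS D7 against Control. For R1 against MMS D28 they were -1.58 to 0.23 for Col3a1 and -0.21 to 0.48 for Col6a2, and for R2 against MMS D28 -0.76 to 1.06 for Col3a1. The log2 ratio difference from Control ranged from -0.14 to 0.18 for Col1a1 to Col3a1 in R2, from -0.0689 to 0.30 for Col1a1 to Col5a2 in R2, from -0.0475 to 0.0881 for Col3a1 to Col5a2 in R1, from -0.22 to 0.15 for Col3a1 to Col6a2 at MMS D14, from -0.0705 to 0.13 for the same ratio in R1, from -0.14 to 0.18 for Col5a2 to Col6a2 in R1, and in cartilage from -0.70 to 0.18 for Col3a1 to Col6a2 at MMS D3. Without the 5 libraries apart, 3 of these turned: Col1a1 to Col3a1 in R2 (0.11), Col3a1 to Col5a2 in R1 (-0.0475) and Col5a2 to Col6a2 in R1 (0.18). Where a fit left 1 cartilage sample in a group, its spread was taken to be that of the other groups. Unknown depth limits how precisely any single value is known.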
